A study of Mus musculus with 8 samples.

Results

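The 10 genes described here, *Mcm2*, *Mcm3*, *Mcm4*, *Mcm5*, *Mcm6*, *Mcm7*, *Pcna*, *Rrm1*, *Rrm2* and *Tyms*, encode core parts of the machinery that copies DNA. They were taken by symbol from the 10783 genes of a table of normalized RNA-seq counts from splenic B-1a cells, and all 10 were in the table and passed the filter on low values (10627 genes did). A normalized count is the number of reads assigned to a gene divided by a size factor of its library.

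The study asked what happens in B-1a cells that lack CTLA-4, an inhibitory receptor best known from T cells. The 8 libraries came from mice aged 2–3 months and fell into 3 groups. IgMneg B-1a cells (IgMneg IgDneg CD5+ CD43+ B cells, 3 libraries) and IgMhi B-1a cells (IgMhi IgDlo/neg CD21lo/neg CD43+ CD5+, 2 libraries) were sorted from CKO mice, which are Ctla4 fl/fl and carry a Cre allele expressed in B cells. IgMhi B-1a cells were also sorted from control mice, which are Ctla4 +/+ with the same Cre allele (3 libraries). The controls thus carry Cre as well, the deletion is directed to B cells, and CKO and control mice came from separate crosses. The floxed mice were BALB/c, and controls came from mice of the Cre line mated with BALB/c mice. The paper does not state the strain of the Cre line. A difference in strain background between CKO and control mice therefore cannot be told apart from genotype. CKO mice 2 and 3 gave both an IgMneg and an IgMhi library, whereas a control mouse that bears such a number is another animal. IgMneg cells of control mice were not analysed here, so the CKO IgMneg against control IgMhi comparison changes genotype and sort together.

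Reads in genes ranged from 5279044 to 9639495 in CKO IgMneg libraries, from 6626127 to 7952315 in CKO IgMhi libraries and from 1404660 to 10289686 in control libraries. Control libraries 1 and 2 were the shallowest, with 17.3% and 25.1% of their reads on *Rn45s*, the precursor of ribosomal RNA, against 4.62% to 11.6% in the other 6. *Ctla4* averaged 51.8 ± 20.6 normalized counts in CKO IgMneg, 32.4 ± 5.47 in CKO IgMhi and 54.0 ± 19.7 in control libraries (SD, n = 3, 2 and 3), and none of the 3 comparisons passed for it (limma, adjusted p 0.383 to 0.932). These counts cover the whole gene, so they do not check the deletion. B-cell genes such as *Cd79b* and *Ms4a1* were high in every library, and the summed level of 9 B-1a and B-cell markers was 29563 to 31608 in CKO IgMneg, 27622 to 31984 in CKO IgMhi and 30449.5 to 34183 normalized counts in control libraries. Within that sum the B-cell receptor component *Cd79a* was at 1544 to 2132 in CKO IgMneg, 3031 to 3127 in CKO IgMhi and 2552 to 2922 in control libraries. *Bhlhe41*, a transcription factor of B-1a cells, was at 424 to 570.0 in CKO IgMneg, 755 to 858 in CKO IgMhi and 595 to 814 in control libraries. Both genes were thus lower in every IgMneg library. *Spn* and *Cd5*, which encode the sort markers CD43 and CD5, were not lower in IgMneg libraries as a group. *Spn* was at 1309 to 2570 in CKO IgMneg, 958 to 1103 in CKO IgMhi and 1067 to 1421 in control libraries. *Cd5* was at 155 to 246, 151 to 178 and 129 to 138 in the same groups.

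MCM2 to MCM7 form the ring-shaped helicase that is loaded onto replication origins in G1 phase and unwinds DNA in S phase. PCNA is the sliding clamp that holds DNA polymerases on the template. RRM1 and RRM2 are the large and small subunits of ribonucleotide reductase, which makes deoxyribonucleotides, and TYMS (thymidylate synthase) makes dTMP. In mammalian cells transcription of these genes is under E2F factors and is low in resting lymphocytes. B-1a cells arise largely in fetal and neonatal life and are kept in adults by self-renewal, so that some of them are in cycle at any time.

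The promoters of 4 members are shown, because *Mcm5* and *Mcm6* had the highest positive fold changes in CKO IgMneg over control IgMhi cells, and *Pcna* and *Rrm2* lay at opposite ends of the CKO IgMneg over CKO IgMhi comparison. RefSeq entries (GRCm38.p6) were found for 9 of the 10 members, with 2 entries for *Mcm7* and none for *Mcm4*. The 250 bases before the start site were searched on both strands for 4 forms of the E2F motif (TTTCGCG, the form TTTGGCG, the form TTTCCCG and the form TTTGCCG) and for the CCAAT box (CCAAT). Each run below is written 5′ to 3′ on the strand of the gene and ends at the base before the start site, and capitals mark the matches, on either strand, so that ATTGG is a CCAAT box on the other strand.
Mcm5 (chr8:75109259-75109508, + strand): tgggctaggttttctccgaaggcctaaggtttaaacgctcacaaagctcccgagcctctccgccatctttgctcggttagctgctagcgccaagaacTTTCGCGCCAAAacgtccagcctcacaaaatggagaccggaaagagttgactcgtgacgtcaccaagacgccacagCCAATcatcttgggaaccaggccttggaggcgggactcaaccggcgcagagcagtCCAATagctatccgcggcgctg
Mcm6 (chr1:128359706-128359955, - strand): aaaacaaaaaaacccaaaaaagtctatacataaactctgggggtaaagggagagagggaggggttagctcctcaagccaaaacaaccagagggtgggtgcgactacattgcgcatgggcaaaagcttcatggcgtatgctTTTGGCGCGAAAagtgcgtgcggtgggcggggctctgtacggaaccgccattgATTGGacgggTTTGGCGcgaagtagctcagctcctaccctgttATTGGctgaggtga
Pcna (chr2:132253181-132253430, - strand): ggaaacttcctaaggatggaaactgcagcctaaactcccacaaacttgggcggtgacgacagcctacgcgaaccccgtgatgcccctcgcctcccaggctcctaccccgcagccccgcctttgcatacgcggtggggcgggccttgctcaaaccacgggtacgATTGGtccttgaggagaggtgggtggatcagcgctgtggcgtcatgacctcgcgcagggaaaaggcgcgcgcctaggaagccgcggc
Rrm2 (chr12:24708004-24708253, + strand): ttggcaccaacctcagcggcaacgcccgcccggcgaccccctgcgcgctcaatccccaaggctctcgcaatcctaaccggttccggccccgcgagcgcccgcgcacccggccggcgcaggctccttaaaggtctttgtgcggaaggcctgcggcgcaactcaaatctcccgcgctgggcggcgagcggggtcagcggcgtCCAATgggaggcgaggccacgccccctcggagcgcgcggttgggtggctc

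In *Mcm5* a TTTCGCG whose first base lies 153 bases before the start site overlaps a TTTGGCG on the other strand. *Mcm6* holds the same pair in the reverse arrangement, 110 bases before the start site, and another TTTGGCG at 47. *Pcna* and *Rrm2* hold 1 CCAAT box each and none of the 4 E2F forms in this window. Of the 10 member promoters, 3 (*Mcm5*, *Mcm6* and 1 entry of *Mcm7*) held an E2F form, against 5.51% of 32851 promoters of the same length. A CCAAT box was in 9 of 10 (all but *Tyms*), against 33.8% of all. These are matches of letters, with no measurement of binding.

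Levels between genes were compared per kilobase of annotated exon, as the mean over the 8 libraries ± SD. *Pcna* was highest at 456 ± 72.6 normalized counts per kb, followed by *Mcm5* at 167 ± 32.0 and *Mcm3* at 152 ± 34.2. *Mcm6* (112 ± 24.4), *Rrm1* (112 ± 15.8) and *Mcm2* (107 ± 21.1) came next, then *Mcm7* (92.4 ± 14.7) and *Mcm4* (83.7 ± 12.98). *Rrm2* (30.1 ± 6.35) and *Tyms* (21.3 ± 1.44) were lowest. The length joins the exons of all annotated isoforms of a gene, which is 6089 bases for *Tyms* and 2771 for *Rrm2*. Without division by length *Tyms* (129.9 normalized counts) was above *Rrm2* (83.3), so the order of these genes depends on it. Neighbours in this order lay closer than the larger of their SDs, except for the steps from *Pcna* to *Mcm5*, *Mcm3* to *Mcm6*, *Mcm4* to *Rrm2* and *Rrm2* to *Tyms*. Within the helicase, *Mcm5* made up a mean of 23.3% of the summed per-kb level of the 6 genes (21.0% to 25.8% over libraries) and *Mcm4* 11.8% (9.52% to 14.7%). The protein complex holds 1 copy of each subunit, but these RNA shares depend on the same exon lengths.

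**Figure D1:**
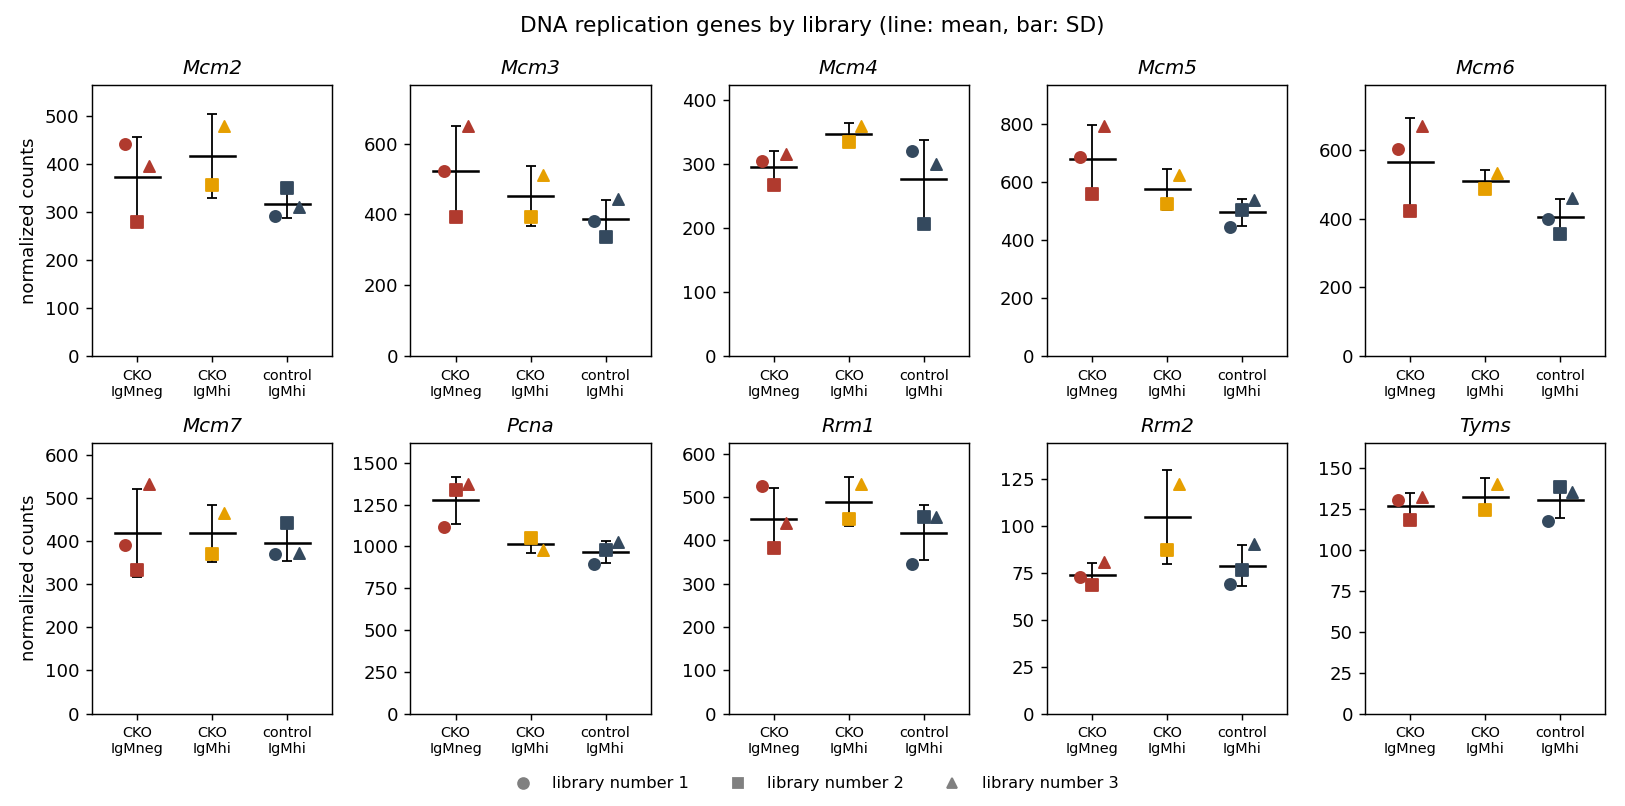
Normalized counts of the 10 genes in each library (points, with the library number as the shape), for CKO IgMneg, CKO IgMhi and control IgMhi B-1a cells, with the mean (line) and SD (bar). *Pcna* is at 1115 to 1374 in CKO IgMneg libraries against 977 to 1053 in CKO IgMhi and 896 to 1025 in control libraries, while *Tyms* stays between 118 and 141 in all 8.

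Among the helicase genes, *Mcm2* (chr6:88833469-88848774 of mm9, - strand) had 440.3, 279 and 396 normalized counts in CKO IgMneg libraries 1, 2 and 3, 355 and 478 in CKO IgMhi libraries 2 and 3, and 291, 349 and 310.1 in control libraries 1, 2 and 3. Both CKO IgMhi libraries lay above the controls, and the IgMneg libraries spread across both groups. *Mcm3* (chr1:20793055-20810359, - strand) had 524, 392 and 649 in CKO IgMneg, 392 and 513 in CKO IgMhi, and 382, 335 and 443 in control libraries. Its groups overlapped throughout, with CKO IgMneg library 3 highest of all. *Mcm4* (chr16:15623990-15637493, - strand) had 304, 267 and 315 in CKO IgMneg, 334 and 358 in CKO IgMhi, and 320.1, 206 and 300.0 in control libraries. The CKO IgMhi libraries were above both other groups, and the 206 of control library 2 rested on 43 reads.

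*Mcm5* (chr8:77633427-77652338, + strand) had 685, 558 and 792 normalized counts in CKO IgMneg libraries, 524 and 625 in CKO IgMhi libraries, and 445, 503 and 538 in control libraries. All IgMneg libraries were above all controls, and the CKO IgMhi libraries overlapped both. *Mcm6* (chr1:130228168-130256233, - strand) had 604, 422 and 669 in CKO IgMneg, 487 and 534 in CKO IgMhi, and 398, 354 and 461 in control libraries. Here the CKO IgMhi libraries were above the controls, whereas IgMneg library 2 fell inside the control range. *Mcm7* (chr5:138605811-138613650, - strand) had 389.9, 334 and 532 in CKO IgMneg, 371 and 464 in CKO IgMhi, and 369, 440.5 and 372 in control libraries, with overlap in every comparison. *Mcm7* overlaps *Ap4m1* and *Cops6* on the opposite strand, and whether reads were counted by strand is not given in the sources used here, so its counts are less certain.

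The clamp gene *Pcna* (chr2:132074898-132079050, - strand) had 1115, 1339.6 and 1374 normalized counts in CKO IgMneg libraries, 1053 and 977 in CKO IgMhi libraries, and 896, 977 and 1025 in control libraries. All 3 IgMneg libraries were above all 5 IgMhi libraries. The annotation also holds the processed copies *Pcna-ps1* and *Pcna-ps2*, which can share reads with *Pcna*.

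Among the genes for nucleotide supply, *Rrm1* (chr7:109590209-109618285, + strand) had 526, 384 and 441 normalized counts in CKO IgMneg, 449 and 530.5 in CKO IgMhi, and 345, 455 and 453 in control libraries. *Rrm2* (chr12:25393106-25399011, + strand) had 72.7, 68.3 and 80.5 in CKO IgMneg, 86.8 and 122 in CKO IgMhi, and 68.9, 76.6 and 90.4 in control libraries. The IgMneg libraries were below both CKO IgMhi libraries for *Rrm2* and overlapped them for *Rrm1*. *Rrm2* was counted from 16 to 205 reads per library, the fewest of the 10. *Tyms* (chr5:30384742-30400157, - strand) had 131, 118 and 132 in CKO IgMneg, 125 and 141 in CKO IgMhi, and 118, 139 and 135 in control libraries. The highest library was 1.19 times the lowest, the narrowest range of the 10, compared with 1.94 times for *Mcm3*. *Tyms* overlaps *Gm17448* on the opposite strand.

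In CKO IgMhi over control IgMhi B-1a cells, which differ in genotype within the same gate, no member passed the test (limma, Benjamini-Hochberg adjusted p under 0.05 over 10627 genes), against 0.179% of all genes. None was under an unadjusted p of 0.05 either, against 9.62% of all genes, and edgeR and DESeq2 on the recovered reads called 0 members with none under that p. All 10 log2 fold changes were above 0, compared with 50.5% of all genes, although that of *Pcna* was -0.0012 after quantile normalization. They ran from 0.02 for *Tyms* to 0.39 for *Rrm2*, with a median of 0.23 against 0.0038 for all genes. The largest among the helicase genes were *Mcm2* at 0.38 ± 0.20 (SE), *Mcm4* at 0.35 ± 0.20 and *Mcm6* at 0.34 ± 0.19, with adjusted p of 0.581, 0.604 and 0.616. These 3 were also the members whose CKO IgMhi libraries all lay above the controls, which held for 16.2% of all genes.

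The 95% confidence interval of *Mcm2* ran from 0.97-fold to 1.76-fold, that of *Pcna* from 0.85-fold to 1.31-fold and that of *Rrm2* from 0.89-fold to 1.94-fold. Over the 10 members the intervals reached from 0.74-fold to 1.94-fold, and larger differences than these lay outside them. The shallow control libraries 1 and 2 had the lowest mean log2 deviation of the 10 members from their own means over the 8 libraries, at -0.22 and -0.16, against -0.03 in the deep control library 3 and -0.03 and 0.22 in CKO IgMhi libraries 2 and 3. Without control libraries 1 and 2 the log2 fold changes of *Pcna* and *Tyms* were -0.015 and -0.034, with the single control library left assumed to vary like the other groups.

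Within CKO mice, IgMneg B-1a cells were compared with IgMhi B-1a cells. Of the 3 comparisons this one had the most genes past the threshold, 800 (7.53% of all), with 189 higher (1.78%) and 611 lower (5.75%), but 0 of the 10 members. The split of all calls depended on the setting, with 286 higher and 298 lower after removal of the exon length and GC trend. At an unadjusted p under 0.05 there was 1 member, *Pcna*, by limma and DESeq2, against 10.4% of all genes called higher at that level by limma, and 0 by edgeR. The members were split in direction, with 4 fold changes above 0 (50.8% of all genes were) and 6 below, and the median was -0.04 against 0.01 for all genes. At one end *Pcna* averaged 1276 ± 140.5 normalized counts in IgMneg and 1015 ± 53.7 in IgMhi libraries (SD, n = 3 and 2), a log2 fold change of 0.33 ± 0.15 (SE) with an unadjusted p of 0.0423 and an adjusted p of 0.187. At the other end *Rrm2* averaged 73.8 ± 6.16 in IgMneg and 104 ± 25.0 in IgMhi libraries, with -0.48 ± 0.26 and an adjusted p of 0.284. *Mcm4* (-0.23 ± 0.20) was the only other member whose libraries did not overlap. Thus 1 member was higher without overlap, compared with 20.3% of all genes, and 2 were lower, compared with 22.0%.

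Because IgMneg and IgMhi libraries 2 and 3 came from the same mice, the ratio could also be taken within each mouse. *Pcna* was higher in IgMneg cells 1.27-fold in mouse 2 and 1.41-fold in mouse 3. *Rrm2* was at 0.79 and 0.66 times the IgMhi level in mice 2 and 3, *Mcm2* at 0.79 and 0.83, *Rrm1* at 0.85 and 0.83, and *Mcm4* at 0.80 and 0.88. *Tyms* was at 0.95 and 0.94. *Mcm5* was above 1 in both mice (1.06 and 1.27), and *Mcm3*, *Mcm6* and *Mcm7* were above 1 in mouse 3 only (1.27, 1.25 and 1.15) and at 1.00, 0.87 and 0.90 in mouse 2.

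When the 5 CKO libraries were fitted alone with the mouse as a replicate block, *Pcna* passed, with a log2 fold change of 0.42 ± 0.14 (SE) and an adjusted p of 0.0199, and no other member did. In that fit 2465 genes passed (23.2%), 1102 higher and 1363 lower, 10.4% of all genes being called higher. IgMneg library 1 has no partner, so that the fold change rested on mice 2 and 3. With so few libraries beside the blocks, the variance behind its SE and p was taken from genes of similar level. The SE thus does not measure the spread of *Pcna* itself between libraries. With the mouse as a random block in all 8 libraries 1633 genes passed (15.4%), no member did, and *Pcna* had an adjusted p of 0.0808.

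**Figure D2:**
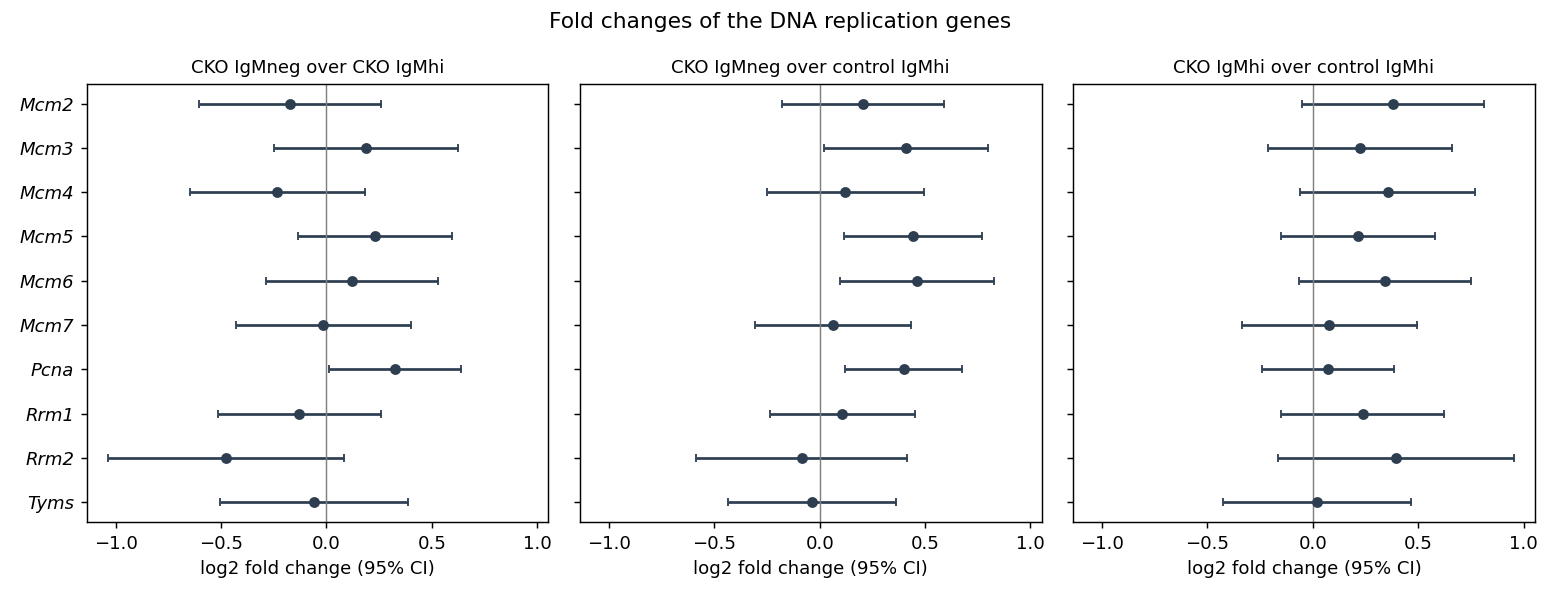
Log2 fold changes of the 10 genes from limma with 95% confidence intervals, in CKO IgMneg over CKO IgMhi (left), CKO IgMneg over control IgMhi (middle) and CKO IgMhi over control IgMhi B-1a cells (right). The intervals of *Mcm3*, *Mcm5*, *Mcm6* and *Pcna* lie above 0 in the middle panel and that of *Pcna* in the left panel, and none of these passed after adjustment over all genes.

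In CKO IgMneg over control IgMhi B-1a cells again no member passed (0.301% of all genes did), and edgeR and DESeq2 called 0 as well. At an unadjusted p under 0.05 there were 4 members, all of them higher, compared with 7.55% of all genes called higher at that level. They were *Pcna* (0.40 ± 0.13, adjusted p 0.18), *Mcm5* (0.44 ± 0.15, 0.202), *Mcm6* (0.46 ± 0.17, 0.224) and *Mcm3* (0.41 ± 0.18, 0.306), given as log2 fold change ± SE and limma adjusted p. edgeR and DESeq2 put the same 4 members under that unadjusted p. Limma without trend put 2 there, *Mcm5* and *Pcna*, where 1416 of all 10627 genes were. Its unadjusted p was 0.0574 for *Mcm6* and 0.110 for *Mcm3*. *Mcm5* averaged 678 ± 117 normalized counts in CKO IgMneg and 495 ± 47.2 in control libraries, or 1.36-fold with a 95% interval of 1.08 to 1.71. The *Pcna* ratio was 1.32-fold (1.09 to 1.60) and the *Mcm6* ratio 1.38-fold (1.07 to 1.77).

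*Mcm5* and *Pcna* were the members whose IgMneg libraries all lay above all controls, against 9.91% of all genes. In all, 8 of the 10 members were above 0, against 50.8% of all genes. The 6 other than *Pcna*, *Mcm3*, *Mcm5* and *Mcm6* were between -0.08 (*Rrm2*) and 0.21 (*Mcm2*), with adjusted p of 0.616 or more, and the median of the 10 was 0.16 against 0.01 for all genes. The 2 comparisons with control libraries share those libraries, and the 2 with CKO IgMneg libraries share theirs, so the 3 are not independent of each other.

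Summed markers of T cells and of germinal centre B cells were higher in every IgMneg library than in the IgMhi libraries. The T-cell genes in the table (3 of 10 listed, *Lck*, *Cd3g* and *Cd247*) summed to 880 to 1050 normalized counts in CKO IgMneg libraries, 389 to 538 in CKO IgMhi and 402 to 438 in control libraries. The sum rested on *Lck*, at 642 to 801 in CKO IgMneg, 318 to 456 in CKO IgMhi and 297 to 356 in control libraries, and on *Cd3g*, at 184 to 230.2, 45.3 to 53.2 and 63.1 to 95.8 in the same groups. *Cd247* was not higher in IgMneg cells, at 17.5 to 20.4 in CKO IgMneg, 24.9 to 29.1 in CKO IgMhi and 9.58 to 24.5 in control libraries. Germinal centre B-cell genes (10 of 12 listed in the table) summed to 282 to 395 in CKO IgMneg, 145 to 239 in CKO IgMhi and 178 to 208 in control libraries, and *Gcsam*, one of them, was at 0 in all 3 controls. *Bcl6*, the master regulator of germinal centre B cells, was at 19.6 to 25.2 in CKO IgMneg, 31.0 to 44.5 in CKO IgMhi and 28.9 to 45.0 in control libraries. Plasma cell genes (7 of 8) summed to 5759 to 9897 in CKO IgMneg, 10110 to 13899 in CKO IgMhi and 8423 to 27324 in control libraries. In CKO IgMneg library 3, which was highest for *Mcm3*, *Mcm5*, *Mcm6*, *Mcm7* and *Pcna*, the myeloid gene *Lyz2* was at 257 normalized counts, against 3.88 to 101 in the other 7 libraries. The erythroid gene *Alas2* (1 of 8 listed was present) was at 120.7 in that library, against 0 to 8.86 in the other 7. The part of these cells in the values of the 10 genes was not tested, and in bulk RNA more cells in cycle and more transcript per cell cannot be told apart.

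Across the 8 libraries, *Mcm3*, *Mcm5* and *Mcm6* had the most similar profiles of the members. On the log2 scale Pearson's r was 0.95 for *Mcm3* with *Mcm6*, 0.91 for *Mcm3* with *Mcm5* and 0.90 for *Mcm5* with *Mcm6* (n = 8 libraries). *Mcm4* stood apart from *Mcm7*, with an r of 0.07, and the 15 pairs of helicase genes had a median of 0.63. Outside the helicase *Mcm2* with *Rrm1* (0.87) and *Rrm1* with *Tyms* (0.80) were closest, while *Pcna* with *Rrm2* was at -0.27, the lowest of the 45 pairs. These values describe 8 libraries of unequal depth, of which 4 came from 2 mice.

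The members together were highest in CKO IgMneg library 3 and CKO IgMhi library 3, with mean log2 deviations of 0.25 and 0.22, and CKO IgMneg library 2 was low at -0.15. Libraries of CKO mouse 3 were thus above those of CKO mouse 2 in both sorts. Among the 8214 genes whose mean reached 50 normalized counts, those close to the mean profile of the 10 included *Ccnb1* (r = 0.96), *Fam219b* (0.95), *Hmmr* (0.94), *Cdc20* (0.93) and *Slc2a9* (0.92). *Ccnb1* encodes the mitotic cyclin B1, *Cdc20* an activator of the anaphase-promoting complex and *Hmmr* a spindle protein.

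The wider replication pathway was read from 7 lists of other genes. Of 24 licensing and firing genes, which load and activate the helicase, 0 passed in any comparison by limma. At an unadjusted p under 0.05 there were 3, 6 and 1 in the order given next, where 2580, 1636 and 1022 of all 10627 genes were. Medians of the licensing and firing genes were close to those of the members, at 0.04 in CKO IgMneg over CKO IgMhi, 0.19 in CKO IgMneg over control and 0.23 in CKO IgMhi over control cells. Their highest expressed genes were *Topbp1*, at 635 ± 26.4 normalized counts in CKO IgMneg, 654 ± 42.1 in CKO IgMhi and 558 ± 83.7 in control libraries, and *Mcmbp*, an MCM-binding protein, at 437 ± 30.3, 530.3 ± 41.9 and 441 ± 16.4 in the same groups. Of 13 genes of replication-coupled chromatin 0 passed as well. At an unadjusted p under 0.05 there were 1, 3 and 1, beside the same 2580, 1636 and 1022 of all 10627 genes. *Dnmt1*, the maintenance DNA methyltransferase, was at 586 ± 63.1 in CKO IgMneg, 716 ± 74.4 in CKO IgMhi and 607 ± 91.9 in control libraries. *Slbp*, the histone mRNA stem-loop binding protein, was at 575 ± 48.1, 423 ± 78.7 and 416 ± 48.0 in these groups, with an adjusted p of 0.111 in CKO IgMneg over CKO IgMhi cells.

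The next counts stand beside the 1.78% of all genes called higher and 5.75% called lower in CKO IgMneg over CKO IgMhi cells. Of 12 polymerase and primase genes, 1 was higher in CKO IgMneg than in CKO IgMhi cells, *Pole3*, a small subunit of polymerase epsilon, at 72.0 ± 9.62 in CKO IgMneg and 34.6 ± 3.02 in CKO IgMhi libraries (log2 fold change 1.03, adjusted p 0.0497). Of 19 genes for clamp loaders, RPA and the lagging strand, 1 was lower, *Top1*, DNA topoisomerase I, at 325 ± 89.6 in CKO IgMneg and 559 ± 54.7 in CKO IgMhi libraries (-0.82, 0.0212). Of 24 nucleotide supply genes, 2 were lower in this comparison, although 18 of the 24 had a fold change above 0 (median 0.22). *Cad*, which starts pyrimidine synthesis, was at 374 ± 48.4 in CKO IgMneg and 682 ± 208 in CKO IgMhi libraries (-0.84, 0.0251), and *Samhd1*, which degrades dNTPs, was at 934 ± 8.80 in CKO IgMneg and 1294 ± 129.7 in CKO IgMhi libraries (-0.47, 0.0497). None of the 4 passed after removal of the exon length and GC trend, where *Samhd1* had -0.11 (adjusted p 0.685), *Cad* -0.40 (0.127), *Top1* -0.50 (0.099) and *Pole3* 0.85 (0.107). *Samhd1* lost its call in 16 and *Pole3* in 17 of 25 alternative settings. In the same comparison 9 of 12 polymerase and primase genes were above 0 (median 0.31). So were 12 of 19 genes for clamp loaders, RPA and the lagging strand (median 0.12), against 50.8% of all genes (median 0.01).

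One gene of the nucleotide list passed in CKO IgMhi over control cells. *Ctps2*, a CTP synthase, was lower there, at 113 and 130.4 normalized counts in CKO IgMhi libraries and 513, 522 and 405 in control libraries (-1.96, adjusted p 0.011), and at 378, 129 and 169 in CKO IgMneg libraries. It did not pass without CKO IgMhi library 2 or 3 (adjusted p 0.103 and 0.181) or control library 2 (0.0707).

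Of 30 mitosis genes 2 were lower and 0 higher in CKO IgMneg than in CKO IgMhi cells (median -0.32, with 4 of 30 above 0), and of 23 G1 to S regulators 3 were lower and 0 higher (median -0.27). Of all genes 5.75% were called lower there, 611 of the 800 calls, and 50.8% were above 0. None of either list passed in the comparisons with control cells. *Mki67*, which encodes the proliferation marker Ki-67, was at 326, 253 and 452 normalized counts in CKO IgMneg libraries 1, 2 and 3 and at 763 and 994 in CKO IgMhi libraries 2 and 3 (-1.38 ± 0.26, adjusted p 0.00522), with no overlap. *Cenpf*, a kinetochore protein gene, was at 41.5 ± 16.2 in CKO IgMneg and 130.3 ± 41.3 in CKO IgMhi libraries (-1.68, 0.0339). *Rb1*, the retinoblastoma protein that holds back E2F, was at 367 ± 27.4 in CKO IgMneg and 615 ± 33.7 in CKO IgMhi libraries (-0.74, 0.00785). *Myc* (-1.21, 0.0156) and *E2f2* (-0.72, 0.0329) were lower too.

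In the same 2 groups *Pcna* was higher in every IgMneg library and the helicase genes had log2 fold changes between -0.23 and 0.23, beside the -1.38 of *Mki67*. The difference between *Mki67* and the members was not tested. All 9 of these calls in CKO IgMneg over CKO IgMhi cells were lost without CKO IgMhi library 3 (adjusted p 0.0851 to 0.393), with a single IgMhi library from CKO mice then assumed to vary like the others, and 6 of 9 without CKO IgMhi library 2 (0.0898 to 0.323). Without CKO IgMneg library 3 or 2, 6 (0.0562 to 0.0969) and 4 (0.0618 to 0.105) were lost. All 9 were lost in limma without trend (0.0624 to 0.156), 6 after removal of the exon length and GC trend (0.0820 to 0.685) and 6 in libraries thinned to the shallowest (0.0555 to 0.308). In CKO IgMhi over control cells 27 of the 30 mitosis genes had a fold change above 0, compared with 50.5% of all genes, with a median of 0.43 and 0 past the threshold in limma (3 at an unadjusted p under 0.05, where 9.62% of all genes were). There *Mki67* was at 879 ± 164 in CKO IgMhi and 539 ± 167 in control libraries (0.75 ± 0.26, adjusted p 0.289).

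**Figure D3:**
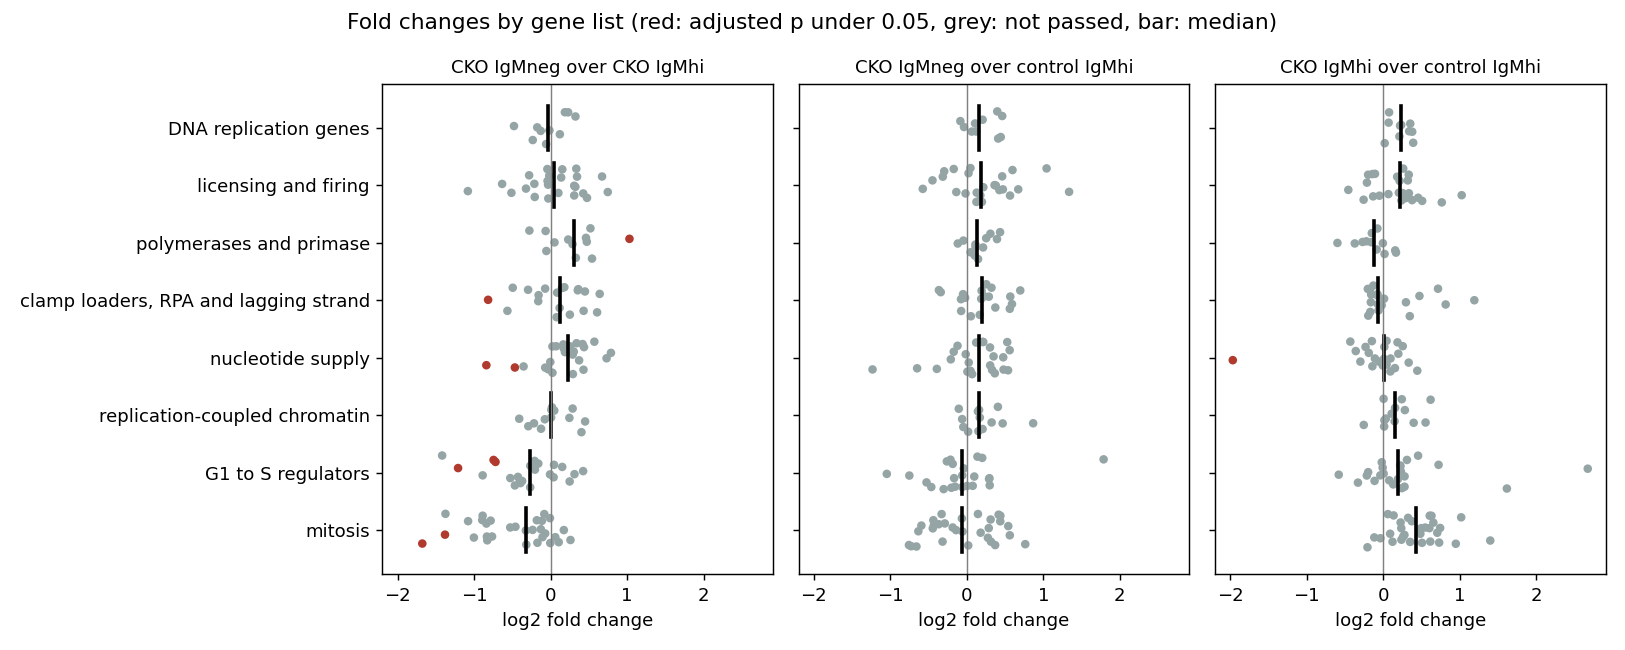
Log2 fold changes of the 10 DNA replication genes and of 7 other gene lists in CKO IgMneg over CKO IgMhi (left), CKO IgMneg over control IgMhi (middle) and CKO IgMhi over control IgMhi B-1a cells (right). Points are genes, red where the adjusted p was under 0.05, and the black bar is the median of each list. The median of the 10 genes is at -0.04, 0.16 and 0.23 from left to right, and that of the mitosis genes at -0.32, -0.06 and 0.43.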

How the data were processed

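RNA was sequenced from sorted splenic B-1a cells after removal of ribosomal RNA. The authors aligned reads to mm9 with TopHat2 2.0.13, used HTSeq 0.6.0 (union mode) to count them over genes, and worked in R 3.3.1. The deposited unit is a signal, since the authors scaled the reads of every library by its DESeq2 size factor. Every value was a whole multiple of 1 read (100% within 0.01 read), so reads were recovered.

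In R 4.3.3, limma 3.58.1 with trend was fitted to log2(normalized count + 1) over 3 groups, on genes that reached 10 normalized counts in 2 or more libraries. Fold changes are on that scale. Tests were two-sided with Benjamini-Hochberg adjustment and a threshold of 0.05. edgeR 4.0.16 and DESeq2 1.42.0 were run on recovered reads. The fits were tested on simulated data. Alternatives were other scalings, pseudocounts and filters, limma without trend or on the groups compared alone, and the mouse or replicate number as a block. Further ones were removal of a trend on exon length and GC content, thinned libraries, and libraries left out. Coordinates are from GENCODE vM1 of mm9, in which 10025 genes (92.97%) were matched, and promoters from RefSeq (GRCm38.p6). Names had turned into dates for 17 genes, which could not be matched.

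The 10 genes, the lists and the rule for names were chosen with earlier results of these data known. The rule names all members, up to 3 called genes of each list per comparison or the 2 of highest level where none was called, and the 6 genes with the most similar profile. Results for some genes that these rules cover were left out of the text.

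CKO mice 2 and 3 occur in both sorts by their labels, and deviations of their libraries correlated across genes (r = 0.26 and 0.20, which are not independent, since the deviations of 2 IgMhi libraries mirror each other). The within-mouse correlation in limma was 0.26. Whether the libraries pool mice is not given in the sources used here, nor is the sex of the mice. The p-values refer to the spread between these libraries. In the main limma fit that spread was estimated for each gene jointly with genes of similar level, so an SE is not the gene's own alone. For *Tyms* the SE in CKO IgMhi over control cells was 0.21 with trend and 0.16 without it. In the fit of CKO libraries alone, the variance came from genes of similar level rather than from each gene.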

Additional observations from a re-analysis of the deposited data

How the results depend on the processing

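Of 730 values of single members under up to 25 alternative settings, 691 kept their direction and their side of the threshold, 1 passed it (*Pcna*, with the mouse as a replicate block in CKO libraries alone, which made 1 the number of members called in CKO IgMneg over CKO IgMhi cells against 0) and 38 changed sign, all of them uncalled. No block changed another call of a member. Medians of the members ranged from 0.12 to 0.38 in CKO IgMhi over control, from -0.16 to 0.13 in CKO IgMneg over CKO IgMhi and from 0.10 to 0.29 in CKO IgMneg over control cells. The causes of the changes were not tested.

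In CKO IgMhi over control cells, *Pcna* changed to -0.0012 with quantile normalization and -0.0011 with the replicate number as a block. It changed to -0.015 without both shallow control libraries (a setting chosen after seeing the data). The number block groups control and CKO mice that share a number but are different animals. *Tyms* changed to -0.0046 with that block, -0.12 after removal of the exon length and GC trend, -0.063 in libraries thinned to the shallowest and -0.034 without both shallow controls, and *Mcm7* to -0.025 after removal of the length and GC trend. In CKO IgMneg over CKO IgMhi cells *Mcm7* changed to 0.0099 (quantile), 0.0064 (DESeq2), 0.026 (number block), 0.023 (block, CKO libraries alone) and 0.14 (length and GC), and *Tyms* to 0.13 (length and GC) and 0.16 (thinned). In CKO IgMneg over control cells *Tyms* changed to 0.012 (total scaling), 0.011 (length and GC) and 0.0997 (thinned), and without both shallow controls *Mcm4* changed to -0.027 and *Rrm1* to -0.022.

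With 1 library left out, CKO IgMhi over control ranged from -0.083 to 0.24 for *Mcm7* and -0.066 to 0.11 for *Tyms*. CKO IgMneg over CKO IgMhi ranged from -0.39 to 0.041 for *Mcm2*, -0.0049 to 0.38 for *Mcm3*, -0.014 to 0.32 for *Mcm6*, -0.20 to 0.15 for *Mcm7* and -0.14 to 0.029 for *Tyms*. CKO IgMneg over control ranged from -0.073 to 0.24 for *Mcm4*, -0.12 to 0.21 for *Mcm7*, -0.024 to 0.22 for *Rrm1*, -0.17 to 0.020 for *Rrm2* and -0.11 to 0.014 for *Tyms*.

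Counts of all genes called moved by over 1.5 times. In CKO IgMhi over control cells 19 became 10 with total scaling, 11 with quantile normalization (7 higher and 4 lower, against 15 and 4), 1 without trend, 120 with DESeq2, 58 with the number block, 2 without both shallow controls and 3 to 30 with 1 library left out. In CKO IgMneg over CKO IgMhi cells 800 became 374 with total scaling (12 higher and 362 lower, against 189 and 611), 0 without trend (2273 at an unadjusted p under 0.05), 1327 with DESeq2, 1269, 1633 and 2465 with the number, random and CKO-only blocks, and 40 to 917 with 1 library left out. After removal of the length and GC trend the split there was 286 higher and 298 lower. In CKO IgMneg over control cells 32 became 15 with total scaling, 51 with a pseudocount of 5, 7 without trend, 187 with DESeq2, 225 with the number block, 73 after removal of the length and GC trend, 9 without both shallow controls and 15 to 47 with 1 library left out. Total scaling moved the median of all genes to 0.15 in CKO IgMhi over control cells. Depth limits *Rrm2*, with 16 reads in control library 2.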
